A study of Mus musculus with 30 samples.

Results

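Lbp and 9 genes of the Toll-like receptor recognition system, 10 genes in all, were followed through 30 RNA-seq libraries of primary mouse cells. The 10 were taken from both deposited tables by gene symbol, out of 24063 symbols for macrophages and 24453 for hepatocytes. Lbp stood at the head of the list because its messenger RNA was already known to be higher with every ligand in these macrophage libraries. Its ligand differences there are therefore given as a description with no test, as is Lbp between vehicle cells of both kinds, since those vehicle macrophage values entered the choice. The other 9 genes, and Lbp between ligands and within hepatocytes, were tested. The Lbp tests between ligands in macrophages use ligand libraries that also entered its choice. In hepatocytes 7 of the 10 genes passed the filter on low counts, and Tlr1, Tlr7 and Tlr8 did not.

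The ligands were desmosterol at 10 uM, DMHCA at 1 uM, MePipHCA at 1 uM, GW3965 at 1 uM and T0901317 at 1 uM, each set against vehicle, labelled DMSO / EtOH, in the same cell type. Desmosterol is a late precursor of cholesterol and a ligand of LXR, the liver X receptors, which are nuclear receptors for sterols. DMHCA and MePipHCA are cholenamides that differ in the amide group, and GW3965 and T0901317 are synthetic non-steroidal LXR agonists. The cells were macrophages called into the peritoneum by thioglycollate, grown in RPMI-1640 with 10% FBS, with 3 libraries per group, and hepatocytes, grown in Hepatozyme with 10% FBS, with 2 libraries per group. All 12 groups, vehicle included, spent 24 h beforehand in medium with 10% lipid-deficient FBS, mevastatin at 10 uM, which blocks cholesterol synthesis, and mevalonate at 50 uM, and then 18 to 20 h with ligand or vehicle. No strain, sex or age of the mice is used here. The labels do not say that replicates were separate animals or cultures, so the p-values speak of the spread between libraries, part of which may be technical. Cell type, medium and the date in the sample titles changed together and cannot be told apart.

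Lipopolysaccharide of Gram-negative bacteria is picked up by the plasma protein LBP, handed to CD14, and loaded by CD14 onto the complex of TLR4 with MD-2, the product of Ly96. TLR2 pairs with TLR1 or TLR6 to read bacterial lipoproteins, TLR7 and TLR8 sit in endosomes and are receptors of the RNA-sensing group, and MYD88 is the adaptor that carries the signal of nearly all Toll-like receptors to the kinases below. LBP is made mainly by the liver as an acute phase protein and belongs to the same lipid-transfer protein family as the phospholipid transfer protein PLTP.

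The start regions of 3 members are shown because these genes changed in macrophages and are among the 5 members with a RefSeq window used here. They are Tlr2, which was lower with every ligand in macrophages, and Tlr8 and Tlr1, which were lower with MePipHCA. Each is the RefSeq window of 300 bases on GRCm38.p6, from 250 before to 50 after a transcript start, written 5′ to 3′ on the minus strand, with capitals marking GGGAA, the core of an NF-kB site, or GAGGAA, the core of a PU.1 site, on either strand. The windows are chr3:83841559-83841858 for Tlr2, chrX:167264280-167264579 for Tlr8 and chr5:64933509-64933808 for Tlr1. The Tlr8 window lies at the start of the transcript counted in hepatocytes, and the one counted in macrophages starts further downstream, at position 167263788.
Tlr2: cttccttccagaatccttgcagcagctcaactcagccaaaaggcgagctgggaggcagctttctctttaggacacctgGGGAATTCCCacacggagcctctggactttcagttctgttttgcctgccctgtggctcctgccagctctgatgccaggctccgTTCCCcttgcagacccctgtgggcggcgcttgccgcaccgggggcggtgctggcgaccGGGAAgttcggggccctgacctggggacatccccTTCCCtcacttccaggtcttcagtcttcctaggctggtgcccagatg
Tlr8: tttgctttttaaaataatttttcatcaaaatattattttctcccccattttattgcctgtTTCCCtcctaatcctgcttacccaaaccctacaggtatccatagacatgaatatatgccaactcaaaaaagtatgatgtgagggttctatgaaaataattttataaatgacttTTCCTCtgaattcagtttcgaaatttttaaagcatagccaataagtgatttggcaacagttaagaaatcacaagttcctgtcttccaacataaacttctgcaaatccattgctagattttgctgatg
Tlr1: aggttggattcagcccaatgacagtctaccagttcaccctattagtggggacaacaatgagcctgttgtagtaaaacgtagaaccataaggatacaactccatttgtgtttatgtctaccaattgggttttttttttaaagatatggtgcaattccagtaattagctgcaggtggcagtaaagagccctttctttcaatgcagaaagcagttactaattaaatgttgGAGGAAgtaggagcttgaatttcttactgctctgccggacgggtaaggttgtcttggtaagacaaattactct
The Tlr2 window holds GGGAA in 5 places, at positions -172, -167, -89, -31 and 4 from the start, and the first of them is directly followed by its own reverse complement. That joined form is in 13 of 32851 RefSeq windows of this length (0.0396%), and in no other window of the members. A string of 10 given letters is rare in such windows whatever the letters, so the small share alone gives it no meaning. Single GGGAA is common, in 62.7% of windows, and GAGGAA is in 28.3%. The Tlr8 window holds GAGGAA at -77 and GGGAA at -190, and the Tlr1 window GAGGAA at -23. AGGTCA, a nuclear receptor half-site in 16.3% of windows, was found at -15 of Tlr2, and an interferon response core, GAAA and again GAAA after 2 free bases, in 3.44%, at -40 of Myd88 and at -116 and -110 of a Tlr6 window. Of the 10 genes, 5 had windows in this search (Tlr1 and Tlr6 with 2 windows each, Tlr2, Tlr8 and Myd88). Cd14 was left out of the search, so its lack of a match here is no finding. Letters were searched on both strands, and a match is a description of the sequence, not of binding.

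On mm10, the build of the deposited tables, the counted transcripts lie as follows. Lbp is at chr2:158306493-158332852 on the plus strand, Cd14 at chr18:36725064-36726815 on the minus strand, Ly96 at chr1:16688456-16709605 on the plus strand and Tlr4 at chr4:66827811-66842796 in the macrophage table and chr4:66827551-66846581 in the hepatocyte table, on the plus strand. Tlr1 at chr5:64924680-64933558 and Tlr6 at chr5:64953095-64960034 are neighbours on the minus strand, and Tlr2 is at chr3:83836272-83841608 on the minus strand. Tlr7 at chrX:167304926-167330571 and Tlr8, at chrX:167242732-167263788 in the macrophage table and chrX:167241123-167264329 in the hepatocyte table, are likewise neighbours on the minus strand, and Myd88 is at chr9:119335988-119340040 on the minus strand. Counts were of reads over exons, and 223 exon bases of Myd88 are shared with Acaa1a on the opposite strand, so a part of its reads cannot be assigned to it with certainty.

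Exon counts per library, in M, ran from 3.86 to 15.7 in macrophages and from 6.63 to 18.6 in hepatocytes, with the vehicle macrophage libraries among the deepest at 10.6 to 15.7. Levels are given as CPM on TMM-scaled library totals within a cell type. The 3 MePipHCA macrophage libraries stood apart, with correlations to libraries of other groups of at most 0.977. The labelled cell types matched their markers: 13 macrophage genes summed to 14000 to 19700 CPM in macrophages with Clec4f, a Kupffer cell gene, at 0, while 10 hepatocyte genes summed to 37700 to 47100 CPM in hepatocytes and to 517 to 895 CPM in macrophages, where Ttr, Fgb, Serpina1c and Tat were at 0. Hepatocyte libraries held 189 to 347 CPM of macrophage markers. Neutrophil markers summed to 15.0 to 30.6 CPM in macrophages, with S100a9 and Retnlg at 0, and B cell, T and NK cell and dendritic cell lists reached at most 3.47 CPM.

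In macrophages Lbp was higher with all 5 ligands than with vehicle. Its level was 6.86, 4.74 and 5.67 CPM with desmosterol, 16.8, 20.6 and 13.1 CPM with DMHCA, and 17.8, 15.3 and 20.7 CPM with MePipHCA. It was 25.3, 24.9 and 30.4 CPM with GW3965 and 21.1, 30.6 and 25.9 CPM with T0901317, against 1.29, 1.56 and 1.86 CPM with vehicle. The vehicle libraries held 14, 25 and 22 Lbp reads, and no ligand library came near their range. The fitted folds over vehicle were 3.59 for desmosterol (log2 fold change 1.84 ± 0.24, SE), 10.4 for DMHCA (3.38 ± 0.22), 11.4 for MePipHCA (3.52 ± 0.21), 17.0 for GW3965 (4.09 ± 0.20) and 16.2 for T0901317 (4.02 ± 0.20), with 3 libraries a group. All 5 comparisons use the same 3 vehicle libraries. Desmosterol was given at 10 uM and the other ligands at 1 uM, so its value stands beside theirs without a comparison.

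**Figure D1:**
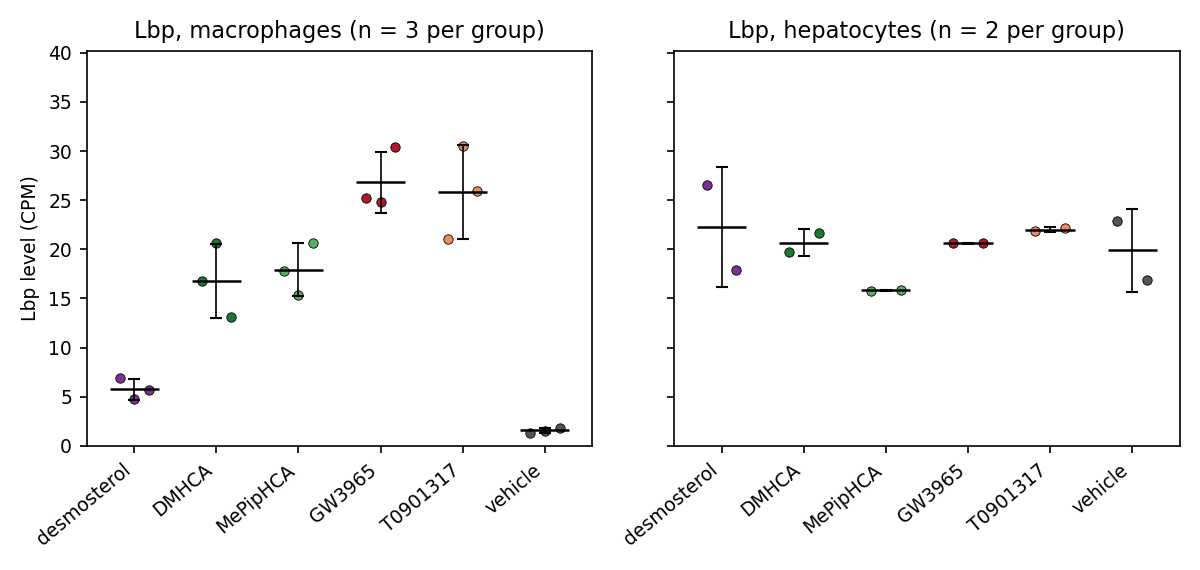
Lbp level in CPM per library, macrophages in the left panel and hepatocytes in the right, with ligand groups left of vehicle, where dots are libraries, lines group means and bars the SD. The 3 vehicle macrophage libraries lie at 1.29 to 1.86 CPM, below every ligand library, while the hepatocyte groups lie between 15.8 and 26.6 CPM with vehicle inside that range.

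Hepatocytes, the main source of LBP in the body, carried Lbp in every group, and no ligand difference in it passed the test. The hepatocyte levels were 26.6 and 17.9 CPM with desmosterol, 19.7 and 21.7 CPM with DMHCA, 15.8 and 15.8 CPM with MePipHCA, 20.7 and 20.6 CPM with GW3965 and 21.9 and 22.2 CPM with T0901317, against 22.9 and 16.9 CPM with vehicle. The vehicle pair alone spans most of the range of the ligand groups. Lbp did not pass the test against vehicle with any ligand by edgeR's quasi-likelihood test, with log2 fold changes of 0.13 for desmosterol (95% interval -0.259 to 0.523, adjusted p = 0.909), 0.04 for DMHCA (-0.353 to 0.427, adjusted p = 0.998) and -0.35 for MePipHCA (-0.745 to 0.0446, adjusted p = 0.509). For GW3965 it was 0.03 (-0.356 to 0.421, adjusted p = 0.988) and for T0901317 0.13 (-0.266 to 0.517, adjusted p = 0.853). The upper bounds of these intervals lie far below the macrophage differences of 3.38 to 4.09 for the 4 ligands at 1 uM.

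To place all 12 groups in 1 order, levels were also scaled jointly over both cell types. On the joint CPM scale Lbp ran from 30.4 ± 3.59 (SD) with GW3965 and 29.4 ± 5.36 with T0901317 to 20.4 ± 3.09 with MePipHCA and 19.1 ± 4.27 with DMHCA, all in macrophages. The hepatocyte groups came next, at 18.7 ± 4.82 with desmosterol, 18.4 ± 0.0141 with T0901317, 17.6 ± 0.12 with GW3965, 17.5 ± 0.969 with DMHCA, 16.8 ± 3.65 with vehicle and 13.2 ± 0.00707 with MePipHCA. Desmosterol macrophages at 6.57 ± 1.21 and vehicle macrophages at 1.79 ± 0.324 closed the order, with 3 libraries a macrophage group and 2 a hepatocyte group. GW3965 and T0901317 macrophages did not differ beyond their spread, nor did MePipHCA and DMHCA macrophages, nor DMHCA macrophages and desmosterol hepatocytes. Among neighbouring hepatocyte groups, the step from T0901317 to GW3965 exceeded the SD of both groups and the other steps did not. Each of these SDs comes from 2 libraries, and Lbp passed the test against vehicle with no ligand in hepatocytes. No difference is therefore read from that step. The steps from T0901317 to MePipHCA macrophages, from hepatocytes to desmosterol macrophages and from these to vehicle macrophages were larger than the spread of either side. With GW3965 and T0901317, macrophages therefore held joint CPM above those of any hepatocyte group mean. Lbp in vehicle macrophages was 1.79 ± 0.324 joint CPM and in vehicle hepatocytes 16.8 ± 3.65 (SD, n = 3 and 2), a fold of 0.106 (log2 -3.24 ± 0.23, SE), given without a test.

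Per kb of transcript, the scale on which genes can be set beside each other, Lbp was the lowest of the 10 in vehicle macrophages at 0.626 ± 0.113 CPM per kb (SD, n = 3). Tlr8 was highest at 58.4 ± 2.79, before Cd14 at 40.9 ± 2.45, Myd88 at 31.3 ± 1.05, Ly96 at 28 ± 1.00, Tlr7 at 24 ± 0.361 and Tlr4 at 23.7 ± 0.981. Tlr2 at 14.9 ± 0.19, Tlr1 at 10.6 ± 0.855 and Tlr6 at 8.38 ± 0.40 were lower, and of these neighbours only Tlr7 and Tlr4 lay within each other's spread. Lbp reached 2.29 CPM per kb with desmosterol, 6.71 with DMHCA, 7.15 with MePipHCA, 10.7 with GW3965 and 10.3 with T0901317, so that with the last 2 ligands it stood at about the vehicle level of Tlr1.

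Cd14, the membrane protein that takes LPS from LBP, was lower with desmosterol and otherwise near vehicle in macrophages. It was at 56.2, 55.8 and 56.5 CPM with desmosterol, against 70.5, 63.2 and 69.9 CPM with vehicle, and these libraries did not overlap. The log2 fold change was -0.27 ± 0.07 (fold 0.829, adjusted p = 0.013 by edgeR's quasi-likelihood test). The call was lost without vehicle replicate 1 (adjusted p = 0.0611) or vehicle replicate 3 (adjusted p = 0.0687). The other 4 ligand groups held 60.3 to 80.6 CPM and none passed the test, with adjusted p of 0.978 for DMHCA, 0.622 for MePipHCA, 0.563 for GW3965 and 0.578 for T0901317.

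Tlr4, the signalling receptor for LPS, was modestly higher with all 5 ligands in macrophages. Levels were 110, 106 and 117 CPM with desmosterol, 114, 116 and 123 CPM with DMHCA and 105, 103 and 113 CPM with MePipHCA. They were 113, 108 and 124 CPM with GW3965 and 117, 107 and 113 CPM with T0901317, against 95.2, 88.3 and 89.1 CPM with vehicle. Every ligand library was above every vehicle library. By edgeR's quasi-likelihood test Tlr4 rose 1.22-fold with desmosterol (log2 0.29 ± 0.06, adjusted p = 0.000805), 1.3-fold with DMHCA (0.38 ± 0.06, adjusted p = 2.65e-05) and 1.18-fold with MePipHCA (0.24 ± 0.07, adjusted p = 0.0038). It rose 1.27-fold with GW3965 (0.35 ± 0.06, adjusted p = 6.89e-05) and 1.24-fold with T0901317 (0.31 ± 0.06, adjusted p = 0.000486). Ly96, whose product MD-2 holds the lipid in the TLR4 complex, passed the test with no ligand, at adjusted p from 0.247 to 0.992. It lay between 14.7 and 24.6 CPM in ligand libraries and between 16.0 and 17.1 CPM in vehicle libraries.

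Tlr2, the shared partner of the lipoprotein receptors, moved the other way from Tlr4. It was at 29.8, 21.4 and 28.4 CPM with desmosterol, 24.6, 26.5 and 22.4 CPM with DMHCA and 20.1, 23.4 and 22.6 CPM with MePipHCA. With GW3965 it was at 26.6, 24 and 39.4 CPM and with T0901317 at 32.5, 28.3 and 23.0 CPM, against 42.0, 42.7 and 43.0 CPM with vehicle. The vehicle libraries were tightly grouped and above every ligand library, of which GW3965 replicate 3 came closest. Tlr2 fell to 0.618 of vehicle with desmosterol (log2 -0.69 ± 0.12, adjusted p = 3.67e-05 by edgeR's quasi-likelihood test), to 0.573 with DMHCA (-0.80 ± 0.13, adjusted p = 1.65e-05) and to 0.518 with MePipHCA (-0.95 ± 0.14, adjusted p = 2.93e-07). The folds were 0.72 with GW3965 (-0.47 ± 0.12, adjusted p = 0.00541) and 0.631 with T0901317 (-0.66 ± 0.13, adjusted p = 0.000181). The GW3965 call was lost without GW3965 replicate 2 (log2 -0.32, adjusted p = 0.134).

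**Figure D2:**
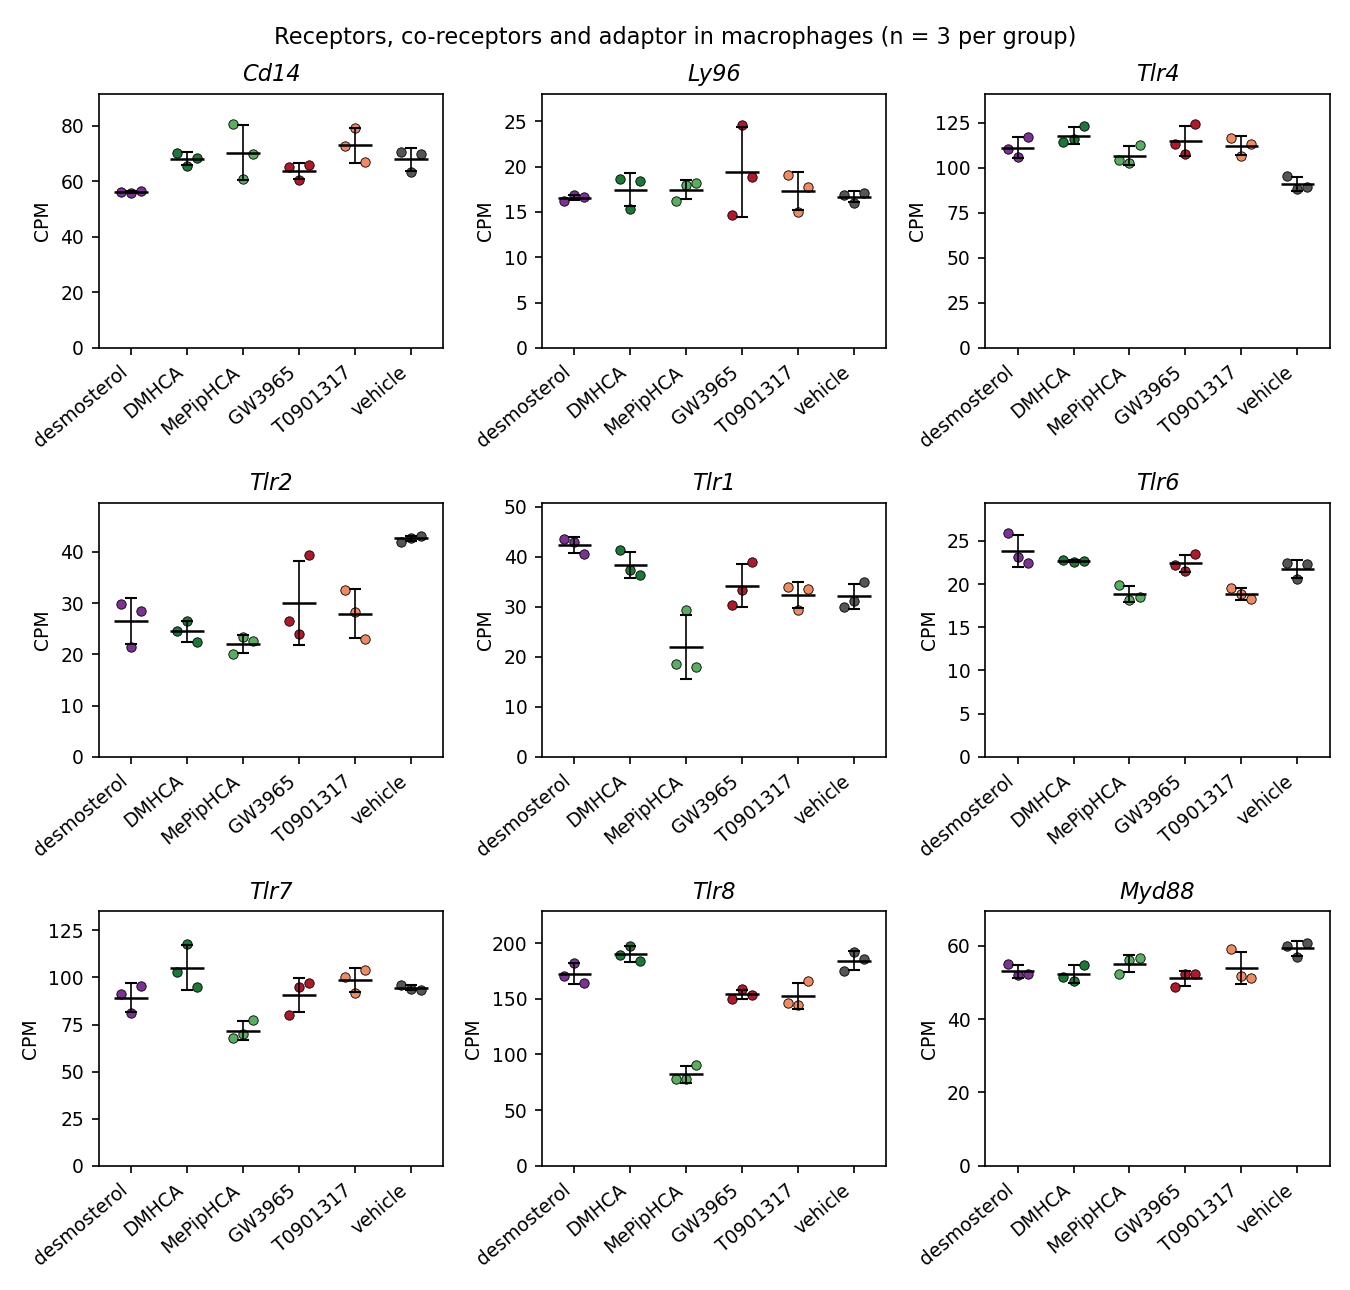
Levels in CPM of the other 9 genes in the 18 macrophage libraries, 1 panel per gene, ligand groups left of vehicle, with dots for libraries, lines for group means and bars for the SD. Tlr2 is below and Tlr4 above the vehicle libraries in every ligand library, and Tlr8 is lowest with MePipHCA, at 77.6 to 90.5 CPM.

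Tlr1 and Tlr6 are the partners of Tlr2, and Tlr1 changed with desmosterol and MePipHCA. Tlr1 was at 43.6, 43.0 and 40.6 CPM with desmosterol, 41.4, 37.4 and 36.3 CPM with DMHCA and 18.6, 29.3 and 18.0 CPM with MePipHCA. With GW3965 it was at 30.4, 33.3 and 38.9 CPM and with T0901317 at 34.0, 29.3 and 33.5 CPM, against 30.0, 31.2 and 34.9 CPM with vehicle. The desmosterol libraries lay above and the MePipHCA libraries below all vehicle libraries. Tlr1 rose 1.32-fold with desmosterol (log2 0.40 ± 0.10, adjusted p = 0.00446 by edgeR's quasi-likelihood test) and fell to 0.67 of vehicle with MePipHCA (-0.58 ± 0.12, adjusted p = 0.000184). DMHCA libraries were also above the vehicle range, without passing the test (log2 0.25, adjusted p = 0.156), and GW3965 and T0901317 gave 0.11 and 0.02. Tlr6 ranged from 18.2 to 25.9 CPM with ligands and from 20.6 to 22.4 CPM with vehicle and passed the test with none, its lowest adjusted p being 0.147 with MePipHCA.

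Tlr8 and Tlr7, the endosomal receptors, were lower with MePipHCA. Tlr8 was at 171, 182 and 164 CPM with desmosterol, 189, 198 and 184 CPM with DMHCA and 78.0, 77.6 and 90.5 CPM with MePipHCA. It was at 150.2, 158 and 154 CPM with GW3965 and 147, 145 and 166 CPM with T0901317, against 175, 192 and 186 CPM with vehicle. The MePipHCA libraries lay far below those of every other group, and the GW3965 and T0901317 libraries were also below vehicle. Tlr8 fell to 0.448 of vehicle with MePipHCA (log2 -1.16 ± 0.07, adjusted p = 5.24e-18 by edgeR's quasi-likelihood test), to 0.837 with GW3965 (-0.26 ± 0.06, adjusted p = 0.00226) and to 0.835 with T0901317 (-0.26 ± 0.06, adjusted p = 0.00225). With desmosterol and DMHCA its log2 fold changes of -0.10 and 0.04 did not pass (adjusted p = 0.37 and 0.753). Tlr7 was at 68.0, 70.1 and 77.4 CPM with MePipHCA, against 96.2, 93.9 and 93.5 CPM with vehicle, and fell to 0.764 (log2 -0.39 ± 0.08, adjusted p = 0.000133). The other 4 ligand groups held 80.3 to 118 CPM of Tlr7 and none passed the test.

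The macrophage marker list moved with the MePipHCA results. Its summed level was 14000 to 14100 CPM with MePipHCA, against 17600 CPM in each vehicle library, and of 10 tested markers 7 fell and 1 rose. Csf1r, the receptor of the macrophage growth factor, is 1 of the list's genes. Markers of stellate cells and fibroblasts summed to 46.8 to 58.3 CPM with MePipHCA and to 149 to 185 CPM with vehicle, those of mesothelial cells to 7.55 to 8.80 CPM and 20.0 to 25.7 CPM. The part of all these markers in the results on the members was not tested, and in bulk RNA fewer cells of a type and less RNA per cell cannot be told apart. With the other 4 ligands the macrophage list summed to 16200 to 19700 CPM. Of its 10 tested markers 4 fell and 2 rose with GW3965 and 4 fell and 3 rose with T0901317, the other ligands with which Tlr8 fell, and with DMHCA 2 fell and 3 rose. Of 5 tested stellate cell and fibroblast markers 5 fell with MePipHCA and 4 with DMHCA, where they summed to 87 to 118 CPM.

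Myd88, the common adaptor, was lower than vehicle in nearly all ligand libraries without passing the test. It ranged from 48.8 to 59.0 CPM with the 5 ligands, T0901317 replicate 1 being the highest, against 60.0, 57.0 and 60.9 CPM with vehicle. The log2 fold changes were -0.16 with desmosterol (adjusted p = 0.16), -0.18 with DMHCA (0.138), -0.10 with MePipHCA (0.31), -0.21 with GW3965 (0.0528) and -0.15 with T0901317 (0.24), all adjusted by edgeR's quasi-likelihood test over all genes.

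Desmosterol raised 2 and lowered 2 of the 9 tested genes, where 4.93% of all 11544 genes tested rose and 4.57% fell. DMHCA raised 1 and lowered 1, beside 5.8% and 5.9% of all genes. With MePipHCA 1 rose and 4 fell, beside 17.2% and 18.3%. With GW3965 1 rose and 2 fell, beside 6.54% and 6.69%, and with T0901317 1 rose and 2 fell, beside 6.29% and 6.55%. The 5 comparisons share their vehicle libraries. DESeq2 gave the same counts. The median log2 fold change of the 9 was -0.08, 0.06, -0.20, -0.05 and 0.02 in the same order of ligands, and that of all genes was within 0.0034 of 0.

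**Figure D3:**
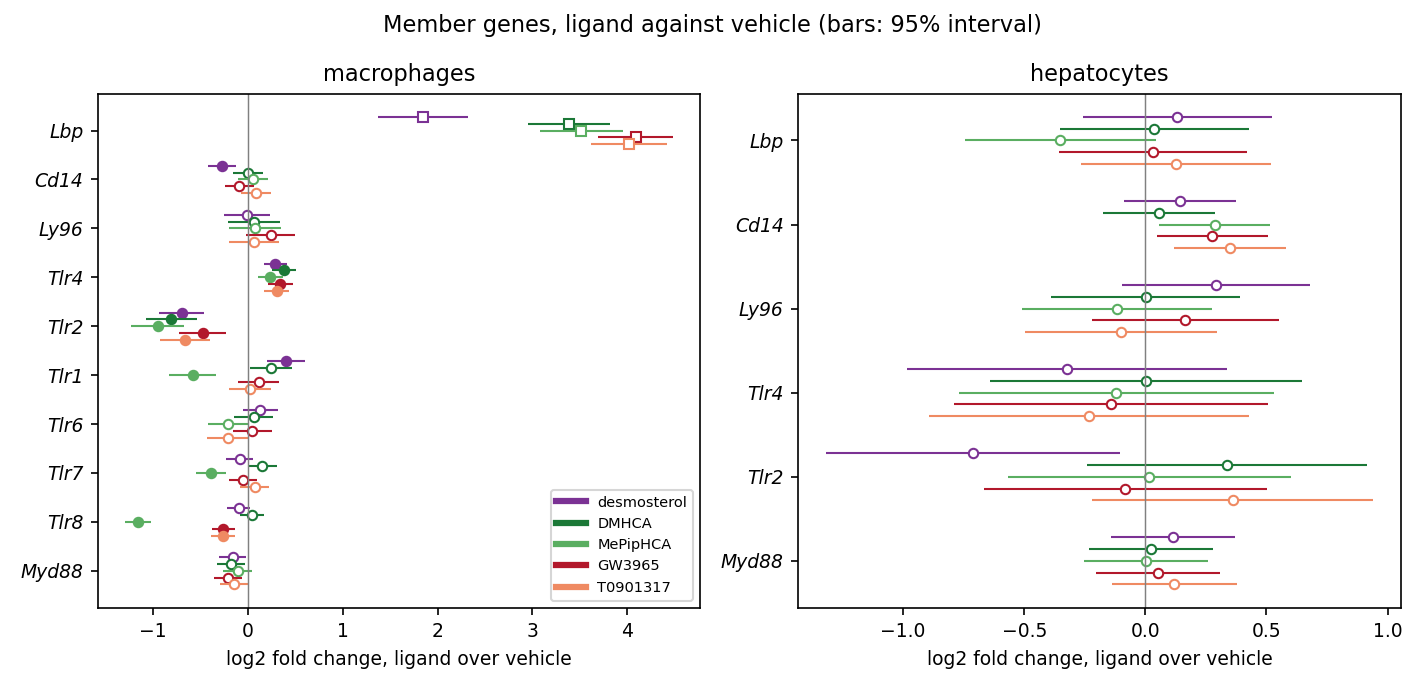
Log2 fold change of each ligand over vehicle with its 95% interval, for 10 genes in macrophages and 6 in hepatocytes, where filled points have an adjusted p under 0.05 and open squares are Lbp in macrophages, given without a test. Lbp lies at 1.84 to 4.09 in macrophages, Tlr4 at 0.24 to 0.38 and Tlr2 at -0.95 to -0.47, and no hepatocyte point is filled.

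The wider pathway was read from lists of other genes of the system. Among 10 tested other Toll-like receptors and co-receptors, desmosterol raised 3 and lowered none, DMHCA raised 5 and lowered 1, MePipHCA raised 2 and lowered 6, GW3965 raised 5 and lowered 1, and T0901317 raised 3 and lowered 1. Their median log2 fold changes were 0.03, 0.14, -0.23, 0.03 and 0.01, with all genes near 0. Hsp90b1, the chaperone that folds Toll-like receptors, rose with every ligand, by 0.26, 0.41, 0.93, 0.33 and 0.34 log2 units. Cd180, a TLR4 relative on the cell surface, rose by 0.29 with desmosterol and 0.32 with T0901317, and Ly86, its partner protein, by 0.33 with DMHCA and 0.33 with GW3965. With MePipHCA Tlr9, an endosomal DNA receptor, had a log2 fold change of -0.82 and Nrros -0.63. Tlr13, a receptor of bacterial ribosomal RNA, had -0.62 with GW3965 and -0.74 with T0901317, where Unc93b1, which escorts endosomal receptors, rose by 0.37.

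Of 21 adaptors, kinases and factors below the receptors, desmosterol raised none and lowered 4, DMHCA none and 5, MePipHCA 5 and 3, GW3965 1 and 4, and T0901317 none and 4. The medians were -0.06, -0.02, 0.02, -0.05 and -0.03. Irf7, an interferon regulatory factor, had log2 fold changes of -0.81 with desmosterol, -0.71 with DMHCA, -1.20 with MePipHCA and -0.70 with T0901317. Ticam2, the TLR4 adaptor TRAM, had -0.36 with desmosterol, -0.29 with DMHCA, -0.42 with GW3965 and -0.50 with T0901317, and Rela, the NF-kB subunit p65, had -0.33 with desmosterol, -0.33 with DMHCA and -0.26 with GW3965. With MePipHCA the ubiquitin ligase Traf6 rose by 0.52 and the adaptor Ticam1 by 0.44.

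Of 6 tested negative regulators, desmosterol raised 2 and lowered 1, DMHCA 1 and 1, MePipHCA 3 and none, GW3965 2 and 1, and T0901317 1 and 1. Tnfaip3, which encodes the NF-kB inhibitor A20, rose with every ligand, by 0.52, 0.54, 0.99, 0.80 and 0.70 log2 units. Nfkbia, the NF-kB inhibitor IkB-alpha, had -0.33 with desmosterol, -0.29 with DMHCA and -0.34 with T0901317. Dusp1, a phosphatase of MAP kinases, rose by 1.14 with MePipHCA and had -0.46 with GW3965.

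Among other acute phase proteins, which hepatocytes release with LBP, only 6 of 22 were abundant enough to test in macrophages, and none rose with any ligand. None fell with desmosterol, GW3965 or T0901317 either, by edgeR, where 0 also held by DESeq2. With DMHCA 1 fell, C3, by 0.42 on the log2 scale, and with MePipHCA 4 fell, among them Serpina3n (-4.21), C3 (-1.58) and haptoglobin, Hp (-1.57). Of 7 relatives of Lbp in its protein family, Pltp alone passed the filter, and it rose with every ligand. Pltp stood at 613 ± 50.4 CPM (SD, n = 3) with desmosterol, 1450 ± 22.8 with DMHCA, 1690 ± 36.5 with MePipHCA, 2280 ± 177 with GW3965 and 2360 ± 132 with T0901317, against 322 ± 10.9 with vehicle. Its log2 fold changes were 0.93, 2.17, 2.40, 2.83 and 2.87, beside 1.84, 3.38, 3.52, 4.09 and 4.02 for Lbp.

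Of 12 tested LXR targets, desmosterol raised 9 and lowered 1, DMHCA 11 and none, MePipHCA 10 and none, GW3965 10 and none, and T0901317 10 and 1, with medians of 0.51, 1.64, 0.81, 2.47 and 2.51. Abca1, the cholesterol exporter, rose by 2.99, 3.76, 4.19, 4.31 and 4.33 log2 units, and Cd38, an NAD-consuming ectoenzyme, by 2.12, 3.32, 3.52, 4.31 and 4.26. The Lbp differences were of the size of those of Abca1 and Cd38 with the 4 ligands at 1 uM.

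Ligands at 1 uM were compared with each other in macrophages in 4 pairs. The pairs were not the contrasts that chose Lbp, but their libraries entered that choice, which limits the Lbp p-values here. MePipHCA and DMHCA, which differ in the amide, gave Lbp levels within each other's range, with a log2 fold change of 0.13 (95% interval -0.206 to 0.469, adjusted p = 0.643 by edgeR's quasi-likelihood test). Of the 10 genes none rose and 3 fell in this pair, where 10.7% of all genes rose and 12.1% fell. Tlr8 was at 0.435 of its DMHCA level with MePipHCA (log2 -1.20 ± 0.07, adjusted p = 2.62e-17), Tlr1 at 0.564 (-0.83 ± 0.13, adjusted p = 3.16e-06) and Tlr7 at 0.688 (-0.54 ± 0.08, adjusted p = 2.75e-06). Tlr2 differed by -0.15 (-0.466 to 0.174) and Tlr4 by -0.14 (-0.282 to -0.00494), both short of the adjusted threshold at 0.576 and 0.137. Pltp differed by 0.23 ± 0.05 (adjusted p = 0.00124). Among the other lists, Dusp1 was higher by 1.33 and Tnfaip3 by 0.45 with MePipHCA than with DMHCA, while Tlr9 differed by -0.68, Ly86 by -0.65 and Nrros by -0.58.

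GW3965 and T0901317, both non-steroidal agonists, gave no call between them in these genes. Lbp differed by 0.07 (95% interval -0.222 to 0.356, adjusted p = 0.971 by edgeR's quasi-likelihood test), and none of the 10 genes passed, by edgeR or DESeq2. Cd14 (-0.18) and Tlr6 (0.26) were the 2 with an unadjusted p under 0.05. Over all genes 0.00866% were higher and 0.00866% lower, 1 gene each way, so the pair as a whole gave almost no calls, with 718 genes at an unadjusted p under 0.05.

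Both cholenamides gave less Lbp than T0901317 at the same dose. These libraries entered the choice of Lbp, which limits its p-values here too, and neither call held without T0901317 replicate 2. DMHCA stood at 0.643 of the T0901317 level (log2 -0.64 ± 0.16, 95% interval -0.955 to -0.32, adjusted p = 0.00798 by edgeR's quasi-likelihood test), and MePipHCA at 0.704 (-0.51 ± 0.16, -0.822 to -0.191, adjusted p = 0.0128). Lbp was 1 of the 10 genes that fell in the DMHCA pair, where 2.25% of all genes rose and 2.87% fell, and Tlr8 rose (0.30 ± 0.06, adjusted p = 0.0018). In the MePipHCA pair, with 12% of all genes up and 13.9% down, 4 of the 10 fell, Lbp together with Tlr8 (-0.90 ± 0.07, adjusted p = 1.33e-13), Tlr7 (-0.46 ± 0.08, adjusted p = 3.38e-05) and Tlr1 (-0.60 ± 0.13, adjusted p = 0.000425). The DMHCA difference in Lbp was not called without DMHCA replicate 3 (log2 -0.45, adjusted p = 0.19) or T0901317 replicate 2 (-0.54, adjusted p = 0.062). The MePipHCA difference was not called without MePipHCA replicate 2 (-0.41, adjusted p = 0.0817) or T0901317 replicate 2 (-0.40, adjusted p = 0.0736). Pltp was likewise lower than with T0901317, at log2 fold changes of -0.70 with DMHCA and -0.48 with MePipHCA.

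**Figure D4:**
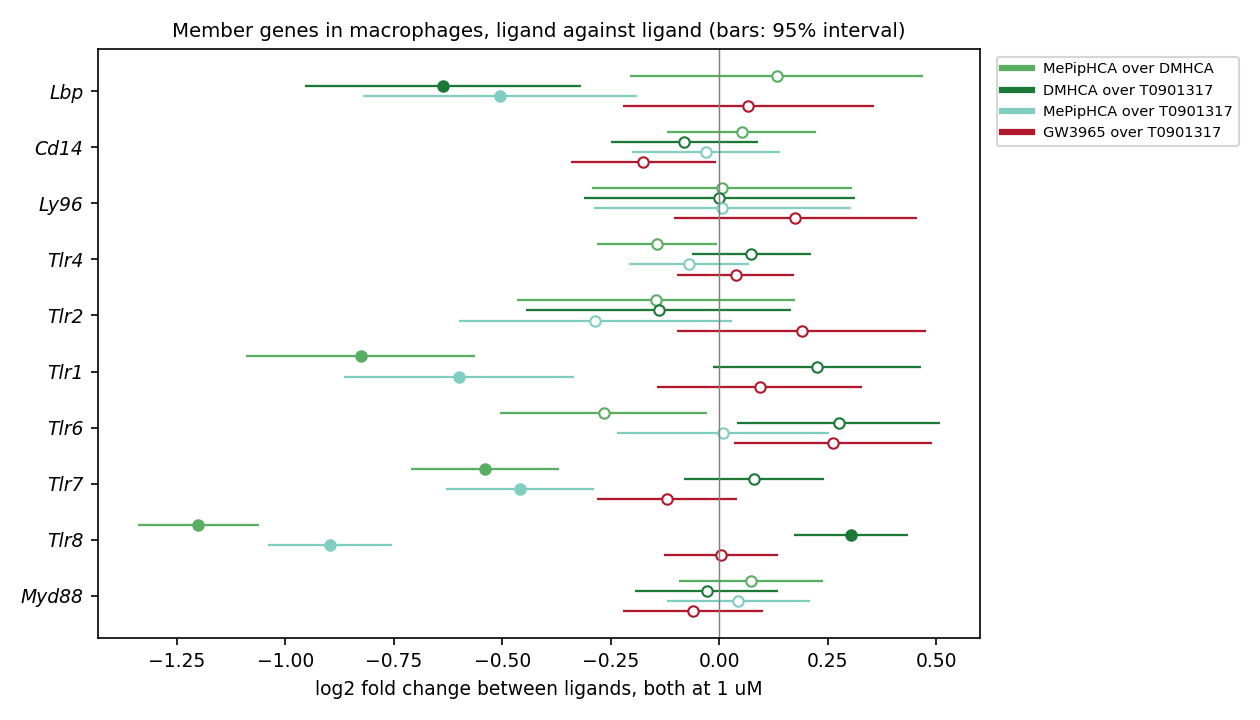
Log2 fold change with its 95% interval of the 10 genes in 4 pairs of ligands at 1 uM in macrophages, the first-named ligand over the second, where filled points have an adjusted p under 0.05. MePipHCA lies below DMHCA for Tlr8, Tlr1 and Tlr7 (-1.20, -0.83 and -0.54), both cholenamides lie below T0901317 for Lbp (-0.64 and -0.51), and no point of GW3965 over T0901317 is filled.

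In hepatocytes Cd14 was the most abundant of the 10 per kb, at 62.7 ± 7.71 CPM per kb with vehicle (SD, n = 2), before Ly96 at 25.6 ± 0.70, Myd88 at 24.2 ± 2.63, Lbp at 7.93 ± 1.67, Tlr2 at 3.86 ± 1.64 and Tlr4 at 0.951 ± 0.146. Ly96 and Myd88 lay within each other's spread. Tlr1, Tlr6, Tlr7 and Tlr8 had 0 to 9, 0 to 13, 0 to 10 and 0 to 8 reads per library, with totals of 24, 64, 58 and 38 over the 12 libraries, and were at 0 in 6, 2, 3 and 4 of them. No fold change is given for these 4 genes in hepatocytes. Macrophage markers summed to 189 to 347 CPM in the same libraries, and to 270 to 281 CPM in those with vehicle, with none of 14 at 0 throughout, and their part in these reads was not tested.

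None of the 7 tested genes passed the test in any of the 6 hepatocyte comparisons by edgeR, nor any of the 2 to 10 members per comparison to which DESeq2 gave an adjusted p. All genes passed at 0.205% up and 0.159% down with desmosterol, 0% and 0% with DMHCA, 0.789% and 1.38% with MePipHCA, 0.364% and 0.114% with GW3965, and 0.486% and 0.455% with T0901317. Between MePipHCA and DMHCA 1.29% were up and 2.01% down. At an unadjusted p under 0.05 by edgeR there were 1, 0, 1, 1, 1 and 2 of the 7 in these comparisons. Of all 13176 genes there were 1112, 615, 1558, 1115, 1655 and 2100 in the same order. The members were Tlr2 with desmosterol, Cd14 with MePipHCA, GW3965 and T0901317, and Lbp and Cd14 between MePipHCA and DMHCA.

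Cd14 in hepatocytes was at 103 and 127 CPM with desmosterol, 105 and 112 CPM with DMHCA, 125 and 129.7 CPM with MePipHCA, 116 and 137 CPM with GW3965 and 139.8 and 126 CPM with T0901317, against 113 and 94.9 CPM with vehicle. The MePipHCA, GW3965 and T0901317 libraries lay above both vehicle libraries. The log2 fold changes were 0.29, 0.28 and 0.35 (adjusted p = 0.249, 0.437 and 0.154 by edgeR's quasi-likelihood test), short of the threshold. Tlr2 was at 4.87 and 8.74 CPM with desmosterol, 12.5 and 16.1 CPM with DMHCA, 10.8 and 12.1 CPM with MePipHCA, 11.8 and 9.68 CPM with GW3965 and 18.0 and 11.0 CPM with T0901317, against 14.3 and 7.71 CPM with vehicle. These groups overlapped with vehicle, whose libraries lay inside the span of the ligand libraries, 4.87 to 18.0 CPM. The log2 fold change with desmosterol was -0.71 (adjusted p = 0.496 by the same test). Ly96 lay between 13.1 and 20.4 CPM, Tlr4 between 4.6 and 8.77 CPM and Myd88 between 42.5 and 51.7 CPM over the 12 libraries. Lbp differed by -0.39 between MePipHCA and DMHCA (95% interval -0.772 to -0.00288, adjusted p = 0.308).

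In the same hepatocytes the other receptors, adaptors, negative regulators and relatives of Lbp gave no call with any ligand by edgeR, with up to 3, 4, 2 and 0 genes of these lists at an unadjusted p under 0.05. DESeq2 called 1 negative regulator up with T0901317 and 1 of the other receptor genes up between MePipHCA and DMHCA. Of 22 tested acute phase genes none rose and 4 fell with MePipHCA, among them Hp (-0.98), ceruloplasmin, Cp (-0.73), and the fibrinogen chain Fga (-0.63). Of 10 hepatocyte markers 5 fell in the same comparison, with a sum of 37700 to 40800 CPM with MePipHCA and 41000 to 47100 CPM with vehicle, and their part was not tested. Fga was the 1 that fell with GW3965 (-0.45), and with T0901317 3 fell, Fga (-0.62), Cp (-0.51) and Hp (-0.45). LXR targets responded here too, with 5 up and none down with GW3965 and with T0901317, where Abca1 rose by 2.24 and 2.41 log2 units. With MePipHCA 2 fell, Abca1 (-0.79) among them. With desmosterol and DMHCA no LXR target or acute phase gene passed by edgeR, with 4 and 1 acute phase genes at an unadjusted p under 0.05, and DESeq2 called 1 acute phase gene up with desmosterol. Pltp was at 6.44 to 8.30 CPM in the hepatocyte groups, against 322 to 2360 CPM in the macrophage groups on that table's own scale.

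Vehicle macrophages were set against vehicle hepatocytes for the members with enough reads in both, and Tlr4, Tlr2, Myd88 and Ly96 were higher in macrophages while Cd14 did not pass the test. Of all 13700 genes in that fit 36.5% were higher and 41.8% lower. In joint CPM Tlr4 was at 104 ± 4.15 in macrophages and 6.31 ± 0.924 in hepatocytes (log2 4.07 ± 0.15, adjusted p = 2.21e-27 by edgeR's quasi-likelihood test), counted over different transcript models of 3841 and 7886 bases. Tlr2 was at 48.5 ± 0.67 and 9.28 ± 4.0 (2.31 ± 0.22, adjusted p = 4.22e-13), Myd88 at 67.5 ± 2.26 and 38.8 ± 4.47 (0.79 ± 0.09, adjusted p = 3.59e-10) and Ly96 at 19.0 ± 0.677 and 12.8 ± 0.438 (0.56 ± 0.16, adjusted p = 0.00135). Cd14 was at 77.3 ± 4.6 in macrophages and 87.6 ± 11.4 in hepatocytes (-0.19 ± 0.10, adjusted p = 0.0709), and became a call without hepatocyte vehicle replicate 2 (-0.31, adjusted p = 0.0153).

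Tlr8 had no read in either vehicle hepatocyte library and 210 ± 10.2 joint CPM in vehicle macrophages, at least 1620-fold higher against a floor of 3 counts over both libraries, which covers counting error only, since reads without molecular identifiers are not independent molecules. Its transcript models differ too, at 3154 and 5042 bases, and per kb the bound was at least 2580-fold. Tlr7 was at 108 ± 1.51 joint CPM in macrophages, with 9 and 0 reads in the hepatocyte libraries over models of 3936 and 3789 bases. Tlr1 was at 36.5 ± 2.96 joint CPM in macrophages, with 9 and 0 reads in hepatocytes, and Tlr6 at 24.8 ± 1.17, with 1 and 2 reads. Tlr1, Tlr7 and Tlr8 came into the fit of both cell types through their macrophage reads alone and Tlr6 was scarce in hepatocytes, so their values are given without a test.

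**Figure D5:**
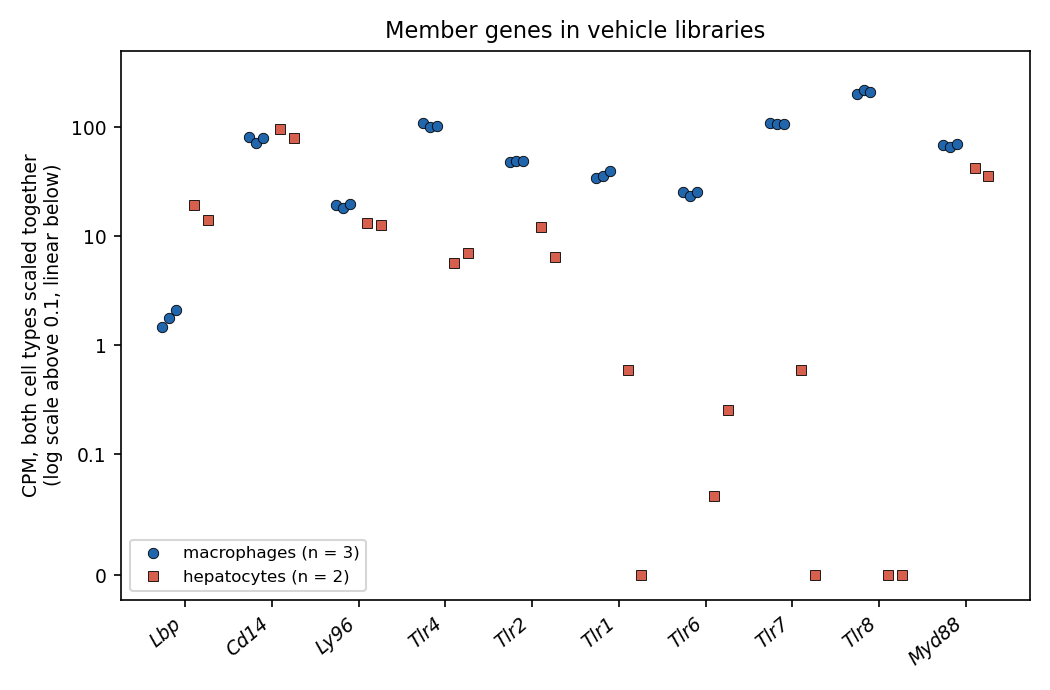
Joint CPM of the 10 genes in vehicle libraries, 3 of macrophages (circles, left of each pair) and 2 of hepatocytes (squares, right), on an axis that is logarithmic above 0.1. Lbp is lower in macrophages (1.79 and 16.8 on average), Cd14 is close in both, and Tlr1, Tlr6, Tlr7 and Tlr8 are near 0 in hepatocytes.

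Whether a ligand acted differently in macrophages than in hepatocytes was asked in 1 fit of all 30 libraries, as the log2 response in macrophages minus that in hepatocytes. For Lbp, described without a test, it was 1.73 ± 0.31 (SE) with desmosterol, 3.35 ± 0.30 with DMHCA, 3.89 ± 0.30 with MePipHCA, 4.04 ± 0.29 with GW3965 and 3.92 ± 0.29 with T0901317. Of the other 9 genes, none passed with desmosterol, GW3965 or T0901317 by edgeR, where 2.53%, 3.11% and 3.64% of all genes passed in either direction. DESeq2 called none, none and 1. At an unadjusted p under 0.05 by edgeR there were 6, 5 and 5 of the 9, beside 1765, 1845 and 2063 of all 13700 genes. With desmosterol and GW3965 these included Tlr1, Tlr6 and Tlr8, which had few hepatocyte reads, so nothing is read from these counts. With DMHCA 1 gene passed, beside 2.75% of all genes, and with MePipHCA 2, beside 9.66%. Tlr1, Tlr7 and Tlr8 were in this fit only through their macrophage reads.

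Tlr2 was the gene that passed with DMHCA, where its log2 response in macrophages minus that in hepatocytes was -1.12 ± 0.30 (adjusted p = 0.029 by edgeR's quasi-likelihood test), and with MePipHCA (-0.92 ± 0.31, adjusted p = 0.0476). With T0901317 it was -0.97 ± 0.30 (adjusted p = 0.0601), with GW3965 -0.39 (adjusted p = 0.634) and with desmosterol 0.04 (adjusted p = 1). Hepatocyte Tlr2 varied widely between the 2 vehicle libraries, and the DMHCA call was lost without hepatocyte vehicle replicate 2 (adjusted p = 0.189), hepatocyte DMHCA replicate 2 (0.106), macrophage DMHCA replicate 3 (0.09) or macrophage vehicle replicate 2 (0.0615). The MePipHCA call was lost in 9 of 15 alternatives, all of them fits without a single library. The 15 also hold fits with another filter, scaling or tool. It was lost without any single macrophage MePipHCA or vehicle library, at adjusted p of 0.0596 to 0.104 by edgeR's quasi-likelihood test. The same held without either hepatocyte MePipHCA library or hepatocyte vehicle replicate 2. The T0901317 difference was called without macrophage T0901317 replicate 1 (adjusted p = 0.0443), hepatocyte T0901317 replicate 2 (0.0115) or hepatocyte vehicle replicate 1 (0.0114). Tlr8 was the other gene that passed with MePipHCA, but it had 8 and 1 reads in the MePipHCA and 0 and 0 in the vehicle hepatocyte libraries, too few to read a difference in response from. Cd14 with desmosterol (-0.41, adjusted p = 0.124) was called without hepatocyte desmosterol replicate 1 (adjusted p = 0.0207), and Tlr4 with GW3965 (0.41, adjusted p = 0.426) without hepatocyte GW3965 replicate 2 (0.0153).

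The genes whose log2 CPM ran most like that of Lbp over the 18 macrophage libraries were Tmem86a (Pearson r 0.985), AB124611 (0.982), Il18bp, which encodes the binding protein of interleukin 18 (0.981), Pltp (0.981) and Cd38 (0.978). The libraries share ligands and vehicle, so these are descriptions of a common rank. Among the members, Lbp ran with Tlr4 at r 0.737 and against Myd88 (-0.62) and Tlr2 (-0.581), and the closest pair apart from Lbp was Tlr7 with Tlr8 (0.81), before Tlr1 with Tlr8 (0.775). Over the 12 hepatocyte libraries the genes most like Lbp were others, Pex11a (0.92), Tk2 (0.911), Scp2 (0.908), Syde2 (0.9) and Aspg (0.879), with Lbp itself spanning only 15.8 to 26.6 CPM. Scp2 is a sterol carrier protein and Pex11a a peroxisome protein.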

How the data were processed

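Polyadenylated RNA was sequenced from 18 macrophage and 12 hepatocyte libraries prepared with dUTP. Per the submitters' processing notes, reads were processed with STAR and HOMER on mm10, with versions not given in the sources used here. The deposited values are raw counts of reads over exons of 1 RefSeq transcript per gene, unpooled, per the file headers, which name no strand option. Tests used edgeR 4.0.16 under R 4.3.3 (filterByExpr, TMM scaling, a quasi-likelihood fit with 1 mean per group over the 6 groups of a cell type, or over all 12 groups after joining by symbol), with Benjamini-Hochberg adjustment over all genes and a threshold of 0.05. This tested 11544 genes in macrophages, 13176 in hepatocytes and 13700 jointly, with a common coefficient of variation of 0.0554, 0.106 and 0.0771. Fold changes are log2 ± SE, the SE being the fold change over the root of the F statistic. Alternatives were DESeq2 1.42.0, its size factors in edgeR, no filter, a filter of at least 1 CPM, only the groups compared, a replicate block and leaving out each library. The fit was tested on simulated data with known changes.

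The members and lists were chosen with earlier results of these data known. All 10 members are named in every comparison, up to 3 genes per pathway list and comparison with the largest change past the threshold, the 5 genes most like Lbp in each cell type, and the 3 most like Cd14 and Tlr2 in macrophages (log2 CPM with a prior count of 2), of which 1 is not reported here. The deposited RPKM tables were not used. Of the marker lists, Adgre1 and Ly6g were not analysed here in macrophages.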

Additional observations from a re-analysis of the deposited data

Results flagged for a closer look

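The Tlr2 response to DMHCA in macrophages minus that in hepatocytes was -1.12 ± 0.30 log2 units, a difference between the cell types that passed edgeR's quasi-likelihood test itself (adjusted p = 0.029). With MePipHCA the Tlr2 difference of -0.92 ± 0.31 also passed (adjusted p = 0.0476). Of 15 alternatives the DMHCA call was lost in 4 and the MePipHCA call in 9, all of them fits without a single library. The 15 also hold fits with another filter, scaling or tool. No fit without a macrophage MePipHCA or macrophage vehicle library kept the MePipHCA call. Without hepatocyte vehicle replicate 2 the Tlr2 differences were -0.81 with DMHCA and -0.62 with MePipHCA. Tlr8 passed the same threshold with MePipHCA (adjusted p = 0.0152), but it was in the fit only through its macrophage reads and had 8 and 1 reads in MePipHCA and 0 and 0 in vehicle hepatocytes, so no difference in response can be read from it.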

How the results depend on the processing

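Among 166 results on the members, 14 changed their call or moved by more than their spread under some alternative. Of the alternative values 1947 kept their side of the threshold or, for Lbp results without a test, stayed within their spread. A change of sign with no call on either side counts among these. Of the rest 20 lost a call, 7 gained one, 4 moved and none that was called reversed. The calls lost or gained by leaving out a library stand beside the results above, and without the filter the Tlr2 difference with T0901317 between cell types became a call (adjusted p = 0.00126). The 4 that moved were the Lbp responses in macrophages minus hepatocytes without hepatocyte vehicle replicate 1, at 3.08 with DMHCA, 3.62 with MePipHCA, 3.77 with GW3965 and 3.65 with T0901317. The Tlr4 calls with all 5 ligands and the Tlr2 calls with desmosterol, DMHCA, MePipHCA and T0901317 against vehicle in macrophages held in all alternatives run. Tlr4 with MePipHCA held only narrowly, at a highest adjusted p of 0.049 over the edgeR and DESeq2 alternatives. With DESeq2 the adaptor list gave 2, 3, 6, 3 and 3 calls in place of 4, 5, 8, 5 and 4 for desmosterol, DMHCA, MePipHCA, GW3965 and T0901317. Counts over all genes moved by more than 1.5 times as follows. Without the filter on low counts GW3965 against T0901317 gave 15 in place of 2, and in hepatocytes desmosterol gave 139 in place of 48, DMHCA 22 in place of 0, GW3965 163 in place of 63 and T0901317 256 in place of 124. DESeq2 gave 93 for hepatocyte desmosterol, 98 for GW3965 and 251 for T0901317. Fitting only the groups compared gave 8 for GW3965 against T0901317, 490 in place of 286 for hepatocyte MePipHCA and 107 for hepatocyte GW3965. The cause of these moves was not tested. Replicate numbers gave little sign of pairing. Deviations of same-numbered libraries correlated at -0.0708 to 0.142 in macrophages (2 of 45 pairs over 0.1) and -0.0223 to 0.0623 in hepatocytes (0 of 30). These deviations are from means of 3 or 2 libraries, so they cannot show that the samples were unpaired. A fit with the replicate block gave 1 call for hepatocyte DMHCA in place of 0 and changed no call of a member. Leaving out 1 library at a time gave 665 to 1042 calls for macrophage desmosterol (1097 with all) and 898 to 1205 for DMHCA (1350), both lowest without vehicle replicate 2, 0 to 2 for GW3965 against T0901317 and 336 to 495 for DMHCA against T0901317 (591). In hepatocytes it gave 15 to 41 for desmosterol, 0 to 27 for DMHCA, 114 to 207 for MePipHCA, 28 to 54 for GW3965, 48 to 107 for T0901317 and 177 to 779 for MePipHCA against DMHCA (435), highest without DMHCA replicate 2. For the responses in macrophages minus hepatocytes it gave 207 to 301 with desmosterol (346), 202 to 648 with DMHCA (377), 260 to 383 with GW3965 (426) and 331 to 483 with T0901317 (498), each lowest without hepatocyte vehicle replicate 1. Low counts limit Tlr1, Tlr6, Tlr7 and Tlr8 in hepatocytes, where differences between ligands were not detectable. They also limit Lbp in vehicle macrophages, with 14 to 25 reads a library.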

Other observations

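Over the 18 macrophage libraries the genes whose log2 CPM ran most like that of Cd14 included Ppp2r5d, a phosphatase subunit (Pearson r 0.853), and Pank2, a pantothenate kinase (0.809). Those most like Tlr2 were Nadk, the NAD kinase (0.928), Vasp, an actin regulator (0.852), and Fhl3 (0.841). The group means of Nadk spanned 7.48 to 7.98 on the log2 CPM scale. Markers of liver endothelial cells summed to 26.9 to 39.6 CPM in macrophages and to 40.1 to 51.6 CPM in hepatocytes. In hepatocytes 2 of 13 tested macrophage and Kupffer cell markers rose with GW3965, where 0.364% of all genes rose. The list median was 0.35 on the log2 scale. The sums overlapped, at 267 to 347 CPM with GW3965 and 270 to 281 CPM with vehicle. Clec4f, a Kupffer cell gene, stood at 10.5 ± 3.94 CPM (SD, n = 2) with GW3965 and 1.35 ± 1.06 CPM with vehicle, and Cd5l at 12.6 ± 2.66 CPM with GW3965 and 1.15 ± 0.349 CPM with vehicle. More cells of a type and more RNA per cell cannot be told apart in these values.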
